A study of Equus caballus with 24 samples.

Results

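The pituitary of Mongolian horses (MHs) was compared between the juvenile and the adult stage, over all genes of the deposited read table. The comparison holds 6 of the 24 libraries of the series, 3 from juveniles (MHPJ, under 3 years of age) and 3 from adults (MHPA, over 3 years of age), and no member was chosen by its values. All 6 libraries came from female horses of this breed with no treatment named, each horse giving 1 pituitary library, and the remaining libraries of the series came from the long bone epiphysis and from Debao ponies (DPs), a small breed. Ribosomal RNA was removed from the total RNA and the rest was sequenced as directional libraries. Between 11433209 and 16153537 reads per library were counted on 24232 genes. No source used here states which lobe of the gland, or how much of the surrounding tissue, went into a sample.

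The pituitary has an anterior lobe of endocrine cells, an intermediate lobe that makes peptides of the POMC precursor, and a posterior lobe of axons from the hypothalamus with glial cells called pituicytes. Anterior lobe cells are named by their hormones, growth hormone (GH), prolactin (PRL), the corticotropin precursor (POMC), and the glycoprotein hormones that share the alpha subunit CGA. During growth the somatotrophs release GH, which acts on the liver and on the growth plates of long bones. In bulk tissue, fewer cells of a type and less RNA per cell cannot be told apart, and this holds for every gene below.

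The labels of the 6 libraries were first checked against the hormone genes. The 7 hormone genes of the list summed to 22486 CPM (counts per 1 M reads, scaled to the same total of reads counted on genes in each library) in MHPA replicate 2 and 32490 CPM in MHPA replicate 3. In the other 4 libraries they were near 0, with 1.11, 13.2 and 1.16 CPM in MHPJ replicates 1, 2 and 3 and 5.78 CPM in MHPA replicate 1. The hormone markers of the anterior and intermediate lobes were therefore carried by 2 adult libraries and by 0 of the 3 juvenile libraries. Transcription factor genes of the pituitary summed to 1466 and 1487 CPM in MHPA replicates 2 and 3 and to between 137 and 188 CPM in the other 4 libraries.

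Each of the hormone-poor libraries carried markers of other cell types. The pituicyte list of the posterior lobe, which includes GFAP and VIM, summed to 2907, 6818 and 2337 CPM in MHPJ and 4951, 1135 and 694 CPM in MHPA. GFAP stands in both this list and the astrocyte list, and the posterior lobe and neighbouring tissue were not told apart here. The log2 fold change of VIM was 2.49 with all libraries and as low as -1.09 with libraries left out. The tested genes of the list had a median of -0.012, so the sums are not a measure of pituicytes alone. In MHPJ replicates 1 and 3 and in MHPA replicate 1, genes of astrocytes summed to between 5194 and 6933 CPM, against 434 and 243 CPM in MHPA replicates 2 and 3. MHPA replicate 1 also stood out by its myelin genes (21444 CPM against 6098 to 8713 CPM in the juveniles) and by genes of the choroid plexus, the tissue that makes cerebrospinal fluid (10727 CPM against at most 82.3 CPM elsewhere). MHPJ replicate 2 had 35764 CPM of Schwann cell and peripheral nerve genes, against at most 391 CPM elsewhere, and led the striated muscle (1800 CPM), collagen (7195 CPM) and erythroid (333 CPM) lists as well. The expression profiles followed these markers. Over 14430 genes, Pearson's r of log2 CPM was 0.965 between MHPJ replicates 1 and 3 and 0.976 between MHPA replicates 2 and 3, while MHPA replicate 1 was closer to MHPJ replicate 1 (0.895) than to MHPA replicates 2 and 3 (0.825 and 0.811). For MHPJ replicate 2 the highest value was 0.814, with MHPA replicate 1. These correlations are descriptions across genes, which share the libraries. Stage and tissue makeup cannot be told apart where all 3 juvenile libraries lie on one side. The counts of DEGs of the gene lists are therefore also given without MHPJ replicate 2 and MHPA replicate 1. In that comparison 28.8% of all tested genes were DEGs, and each such count is to be read beside that share. These 2 libraries were set apart by their markers, so counts of marker lists without them describe the libraries and give no support.

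**Figure D1:**
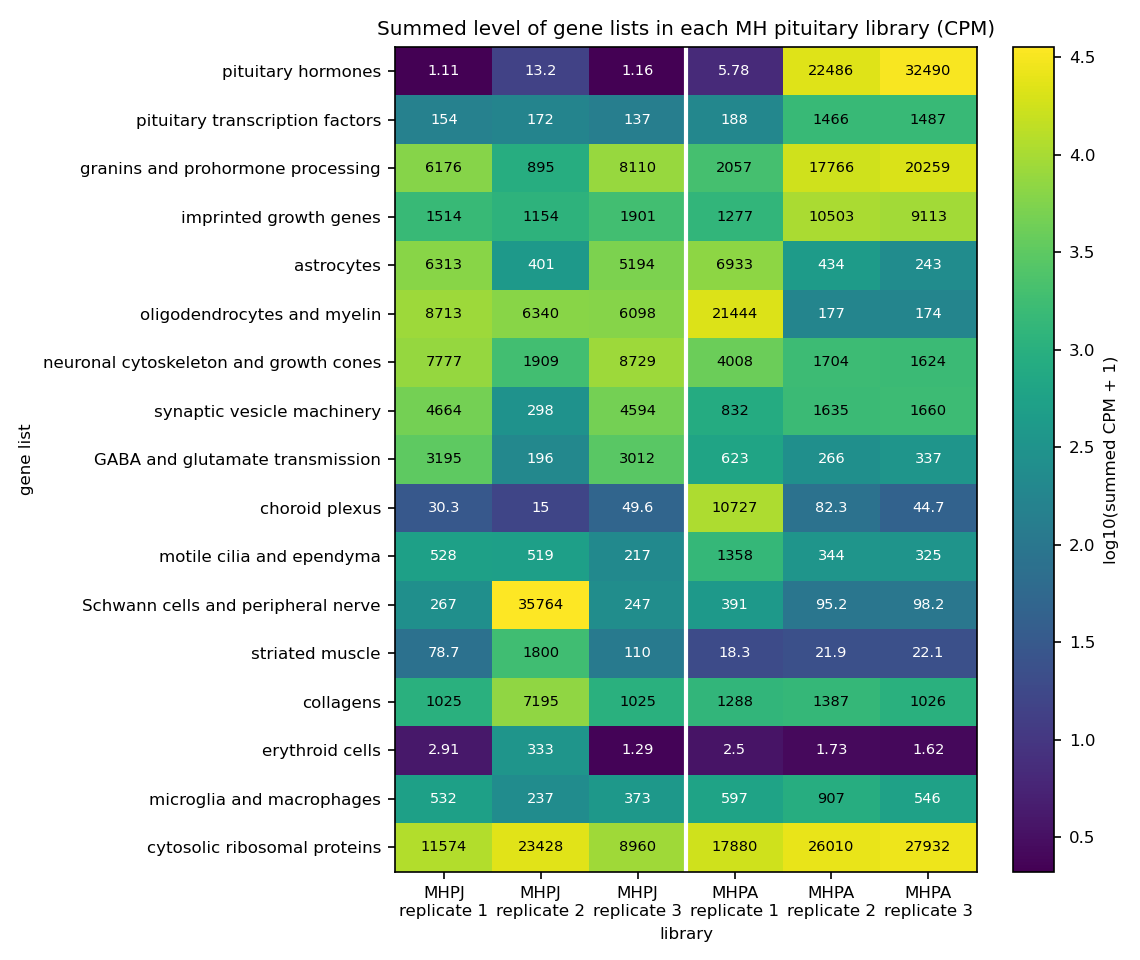
Summed level of 17 gene lists (rows) in the 3 MHPJ and 3 MHPA libraries (columns), in CPM as printed in the cells and as log10(summed CPM + 1) in the color scale. The hormone genes reach 22486 and 32490 CPM in MHPA replicates 2 and 3 only, the choroid plexus genes 10727 CPM in MHPA replicate 1 and the Schwann cell genes 35764 CPM in MHPJ replicate 2.

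Differentially expressed genes (DEGs) between MHPJ and MHPA were called with edgeR's quasi-likelihood test, at an unadjusted P under 0.05 with more than a 2-fold difference, higher or lower. Of 14430 genes tested, 7.74% were DEGs. The 650 DEGs with higher expression in juveniles were 4.5% of the tested genes, and the 467 with lower expression were 3.24%. The balance depended on the processing. Without TMM normalization 585 DEGs were higher and 655 lower. Limma differs in the test, the filter, the pseudocount and the scaling, and on log2(RPKM + 1) it called 353 genes higher and 545 lower. With a pseudocount of 0.1 limma called 515 higher and 710 lower. The median log2 fold change (juvenile minus adult) of all tested genes was 0.005 and moved to -0.13 without TMM normalization, so small differences are relative to that shift. After Benjamini-Hochberg adjustment 0% of the genes had a p under 0.05 in edgeR's quasi-likelihood test. The lowest adjusted p was 0.0758, and 1685 genes had an unadjusted P under 0.05. Other tests gave other counts past an adjusted p of 0.05, 237 with edgeR's exact test and 720 with DESeq2.

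In 17.6% of the tested genes every juvenile library lay on one side of every adult library, 1091 higher and 1451 lower in juveniles. Among the DEGs, 836 did not overlap, 476 with higher and 360 with lower expression in juveniles. Single libraries decided many calls. The number of DEGs was 2308 without MHPA replicate 1 and 2119 without MHPJ replicate 2, and it was 651 without either of the hormone-rich adult libraries, MHPA replicate 2 or 3. With both MHPJ replicate 2 and MHPA replicate 1 left out, 28.8% of 14703 genes were DEGs, 2524 higher and 1711 lower in juveniles, and 4906 genes had an adjusted p under 0.05. That comparison sets 2 libraries with glial and neuronal markers against 2 with hormone genes. Through all 6 comparisons that leave out 1 library, 382 of the DEGs kept their call and direction, 226 higher and 156 lower.

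**Figure D2:**
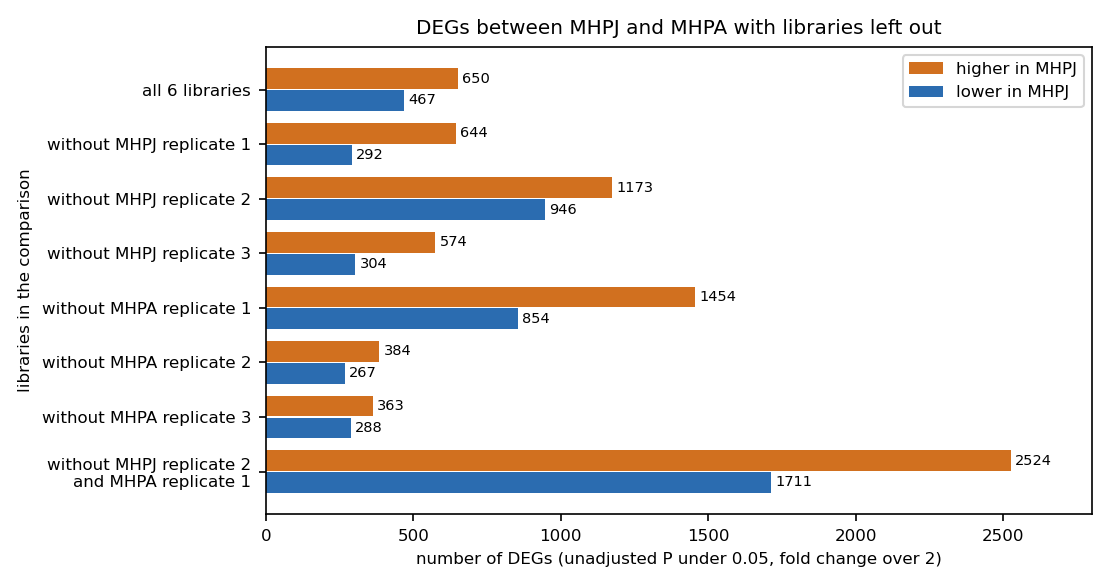
Number of DEGs with higher (orange) and lower (blue) expression in MHPJ, in the comparison of all 6 libraries and with libraries left out. The counts are 650 and 467 with all libraries and 2524 and 1711 without MHPJ replicate 2 and MHPA replicate 1.

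Genes of pituitary hormones had lower expression in the juvenile libraries. GH (ENSECAG00000009154) had 0, 41 and 2 reads in MHPJ and 5, 97101 and 197104 reads in MHPA. PRL (ENSECAG00000000114) had 3, 11 and 0 reads in MHPJ and 7, 44629 and 197169 in MHPA. POMC (ENSECAG00000016388) had 0, 32 and 0 reads in MHPJ and 2, 152712 and 33220 in MHPA. In each of the 3 genes MHPA replicate 1 lay below MHPJ replicate 2, so that the groups overlapped although the other adults were higher by orders of magnitude. The 5 hormone genes that passed the low-count filter were all DEGs, with a median log2 fold change of -11.92 against 0.005 over all tested genes and adjusted p from 0.365 to 0.398 in edgeR's test. The log2 fold change was -12.20 (SE 3.94) for GH, -13.67 (SE 3.77) for PRL and -11.92 (SE 4.07) for POMC. Without MHPJ replicate 2 and MHPA replicate 1 the 5 genes remained DEGs, with a median of -16.97. MHPA replicate 1 was set apart by these same genes, so that result was fixed in advance and gives no support.

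The glycoprotein hormone genes showed the same ordering of libraries. CGA (ENSECAG00000018841), the common alpha subunit, had 0, 12 and 0 reads in MHPJ and 2, 25288 and 32811 in MHPA, and its log2 fold change was -11.75 (SE 3.54). The luteinizing hormone subunit gene LHB was the least uneven, with 0.904, 5.19 and 1.12 CPM in MHPJ and 5.01, 41.7 and 16.5 CPM in MHPA. CPM values of single genes are scaled with the TMM factors. TSHB, for the thyrotropin beta chain, had 0 reads in all 3 juveniles and 0, 87 and 535 reads in MHPA, and FSHB, the beta subunit of follicle-stimulating hormone, had 0, 1 and 0 against 0, 4265 and 1502 reads. Both failed the filter on low counts, which asks for reads in 3 libraries, and were not tested. By counting error alone, 0 reads in a library leaves room for up to 3.

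Transcription factor genes of pituitary cells were lower in juveniles in part. Of 15 tested, 5 were DEGs with lower expression and 0 with higher, and the median log2 fold change was -1.70. TBX19, a corticotroph factor, had at most 0.769 CPM in MHPJ and 0, 292 and 109 CPM in MHPA, and PAX7, a factor of the intermediate lobe, had a log2 fold change of -5.11 (SE 1.86). For both genes MHPA replicate 1 lay with the juveniles. The groups did not overlap for EYA1 (26.8, 24.5 and 11.4 against 31.2, 90.1 and 103 CPM) and EYA4 (5.61, 5.19 and 3.36 against 8.09, 15.9 and 21.5 CPM), both of the EYA family of placode regulators. Without MHPJ replicate 2 and MHPA replicate 1, 10 of the 15 were DEGs, all lower. POU1F1, the factor behind somatotrophs, lactotrophs and thyrotrophs, was filtered out with 0, 3 and 0 reads against 0, 1867 and 4013.

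Receptors for hypothalamic and peripheral signals were mixed. Among 12 tested, 1 was a DEG with higher and 2 with lower expression in juveniles, with a median of -0.069, and 3 and 4 were without the 2 libraries. The estrogen receptor gene ESR1 had 0.543, 0.769 and 1.12 CPM in MHPJ and 0.539, 61 and 51.7 CPM in MHPA, with MHPA replicate 1 again at the juvenile level. PRLR (ENSECAG00000009483), the prolactin receptor gene, differed in that all 3 adults were high, with 1.15, 1.83 and 0.911 CPM in MHPJ and 109, 39.8 and 33.5 CPM in MHPA. The somatostatin receptor gene SSTR1 was a DEG in the other direction, at 1.51, 0.866 and 2.24 CPM against 0.462, 0.184 and 0 CPM. Granins and prohormone processing genes, which serve hormone storage and cleavage, had 0 DEGs higher and 2 lower among 18, with a median of -0.66. The list summed to 6176, 895 and 8110 CPM in MHPJ and 2057, 17766 and 20259 CPM in MHPA. CHGB, the chromogranin B gene, had 876, 69.6 and 2442 CPM against 68, 6294 and 7391 CPM and was not a DEG. RAB27A, a GTPase of granule docking, did not overlap between the groups (5.18, 7.6 and 3.92 against 11.9, 344 and 530 CPM, log2 fold change -5.73, SE 1.36, adjusted p = 0.348 by edgeR). CHGA, the chromogranin A gene, had 286, 36.1 and 207 CPM in MHPJ and 62.5, 3455 and 5598 CPM in MHPA. Without the 2 libraries that stood apart, 3 of the 18 were DEGs with higher and 8 with lower expression.

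Markers of folliculostellate and stem cells, the non-endocrine cells of the anterior lobe, gave 2 DEGs in each direction among 18 (median 0.28, -0.42 without the 2 libraries). The 2 lower genes were ALDH1A1 and ALDH1A2, which are described with the retinoid genes, and the higher were CYP26A1 and GFRA2, whose groups overlapped. Without the 2 libraries 5 were higher and 6 lower. Pituicyte genes gave 0 higher and 1 lower DEG among 12 (median -0.012), and 2 and 4 without the 2 libraries (median -0.76). The lower gene with all libraries was TBX3, a transcription factor gene of the posterior lobe and hypothalamus, at 2.05, 4.71 and 3.43 CPM in MHPJ and 6.39, 24.5 and 15.2 CPM in MHPA. Its log2 fold change was -2.18 (SE 0.604), and it was a DEG in each comparison that left out 1 library.

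Astrocyte, myelin and oligodendrocyte precursor genes gave 0 DEGs with all 6 libraries, while their levels differed widely between libraries of the same group. GFAP, the intermediate filament of astrocytes, had 2309, 55.9 and 1868 CPM in MHPJ and 5040, 4.84 and 3.81 CPM in MHPA. AQP4, the water channel of astrocyte endfeet, had 1085, 4.14 and 966 CPM against 780, 7.78 and 8.66 CPM. In both genes 1 library of each group stood with the opposite group. The median log2 fold change was 1.37 over 15 astrocyte genes, 0.20 over 15 myelin genes and 1.16 over 7 precursor genes. Without MHPJ replicate 2 and MHPA replicate 1 the medians were 3.79, 7.23 and 3.52, and 13 of 15, 15 of 15 and 5 of 7 genes were DEGs, all with higher expression in juveniles. The share of all genes called in that comparison was 28.8%.

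Myelin basic protein MBP had 3368, 2983 and 2612 CPM in the juveniles and 10436, 57.4 and 78.3 CPM in the adults, so that MHPA replicate 1 was above and the other adults far below every juvenile. MOG and MOBP, which are made in central myelin only, were at 1.15 and 6.16 CPM in MHPJ replicate 2 and between 189 and 353 CPM in the other juveniles.

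Neuronal cytoskeleton genes were higher in MHPJ replicates 1 and 3, while MHPJ replicate 2 lay below MHPA replicate 1 in their sum. The list summed to 7777, 1909 and 8729 CPM in MHPJ and 4008, 1704 and 1624 CPM in MHPA. Of 20 genes of the neuronal cytoskeleton and growth cones, all 20 had a positive log2 fold change, 6 were DEGs with higher and 0 with lower expression, and the median was 1.47. The groups did not overlap for 5 of the 20, where 1091 of all 14430 tested genes were separate and higher. MAP1B, a microtubule protein of growing axons, had 111, 83.1 and 136 CPM in MHPJ and 38.2, 25.6 and 23.8 CPM in MHPA (log2 fold change 1.91, SE 0.299, adjusted p = 0.285 by edgeR). TUBB3, the neuronal tubulin, had 417, 152 and 408 CPM against 96.9, 30.5 and 31.5 CPM, and STMN2, a regulator of microtubule growth, had 793, 189 and 890 CPM against 170, 138 and 113 CPM. THY1, a surface protein of neurons, had 73.6, 27.3 and 125 CPM against 16.7, 7.11 and 10.8 CPM. In each of these genes MHPJ replicate 2 was the lowest juvenile and MHPA replicate 1 the highest adult. All 4 kept their call when any 1 library was left out, and 16 of the 20 genes were DEGs without both libraries. GAP43, a growth cone protein, overlapped between the groups (106, 17.3 and 192 against 19.2, 3.49 and 3.1 CPM). PRPH, an intermediate filament of peripheral neurons, had 147 CPM in MHPJ replicate 2 against 2.89 and 4.27 CPM in the other juveniles, and its log2 fold change was 4.60 with all libraries and 0.91 without the 2 libraries.

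Synaptic genes were higher in MHPJ replicates 1 and 3, while MHPJ replicate 2 had the lowest list sums of the 6 libraries. GABA and glutamate genes summed to 3195, 196 and 3012 CPM in MHPJ and 623, 266 and 337 CPM in MHPA. GABA and glutamate transmission gave a positive log2 fold change in 20 of 20 genes, with 5 DEGs higher and 0 lower and a median of 2.93. GRIA3, an AMPA receptor subunit, had 136, 66.9 and 244 CPM in MHPJ and 23.6, 26.8 and 10.7 CPM in MHPA (log2 fold change 2.87, SE 0.6). GABRA3, a GABA receptor subunit, had 125, 95.8 and 180 CPM against 68.7, 27.2 and 37.7 CPM. These 2 genes of the 20 did not overlap between the groups, where 1091 of all 14430 tested genes were separate and higher. The vesicular glutamate transporter SLC17A7 had 60.7, 0.481 and 101 CPM in MHPJ and 0, 0.735 and 0.84 CPM in MHPA, so MHPJ replicate 2 lay among the adults, and GABRA2 and GABRB2 overlapped as well. Without both libraries that stood apart, 19 of the 20 genes were DEGs and the median was 5.42. Of 19 genes of the synaptic vesicle machinery, 2 were DEGs with higher and 0 with lower expression (median 1.12). Their list summed to 4664, 298 and 4594 CPM in MHPJ and 832, 1635 and 1660 CPM in MHPA. SYN2, a vesicle phosphoprotein, had 214, 19.7 and 450 CPM against 16.2, 11.2 and 9.95 CPM. Of the 19 vesicle genes, 14 were higher and 0 lower without both libraries. Voltage-gated channel genes had 1 DEG higher and 0 lower among 25, SCN2B, with a median of 1.10 and 15 higher and 1 lower without both libraries.

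Neuropeptide genes of the hypothalamus could be tested for 8 of 18 found, and 3 were DEGs with higher and 0 with lower expression in juveniles (median 3.59). Without both libraries 5 were higher and 1 lower. VIP (ENSECAG00000013586), the vasoactive intestinal peptide gene, had 17.3, 110 and 20.7 CPM in MHPJ and 0.077, 0.123 and 0.258 CPM in MHPA, which gives 8.24 (SE 1.14) on the log2 scale with an adjusted p = 0.208 by edgeR. ADCYAP1, which encodes the related peptide PACAP, had 25.1, 14.6 and 53.1 CPM against 1.54, 0.306 and 0.129 CPM. For both genes every juvenile was above every adult, MHPJ replicate 2 included. PENK, the enkephalin precursor gene, had 345, 16.1 and 849 CPM against 5.39, 26.5 and 23.5 CPM and overlapped. AVP and OXT, whose peptides are stored in the posterior lobe, were too low to test. AVP had 1, 0 and 1 reads in MHPJ and 6, 55 and 20 reads in MHPA, and OXT had 0 reads in all 6 libraries, which allows up to 3 reads in each.

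Immature neuron and progenitor genes gave 4 DEGs higher and 0 lower among 11 (median 1.97), and 7 and 1 without both libraries. ST8SIA2, which adds polysialic acid to neural surfaces, had 2.23, 0.769 and 0.841 CPM in MHPJ and 0.154, 0.245 and 0.194 CPM in MHPA, and IGF2BP3, a fetal RNA-binding protein, had 6.81, 3.37 and 8.27 CPM against 1.16, 2.08 and 3.23 CPM. The groups did not overlap for these 2 genes. NES, the nestin gene of neural progenitors and of some peripheral cells, had 103, 3103 and 67.8 CPM against 79.5, 47.4 and 40.8 CPM. Its log2 fold change was 4.29 with all libraries and 0.95 without the 2 libraries. SOX11 had 11.5, 0.385 and 8.41 CPM in MHPJ and at most 1.04 CPM in MHPA.

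Choroid plexus genes had 0 DEGs higher and 2 lower in juveniles, and most of the list was high in 1 adult library. TTR, the transthyretin gene, had 0.181, 5.58 and 14.4 CPM in MHPJ and 10784, 0.123 and 0.194 CPM in MHPA, and was not a DEG. The median of the 6 tested genes was -4.75 with all libraries and -0.13 without MHPA replicate 1. Both DEGs of the list kept their call in each leave-out and without both libraries that stood apart. OTX2 (ENSECAG00000004521), a homeobox gene of the choroid plexus and the pineal gland, had 0.723, 0.0962 and 0.49 CPM in MHPJ and 161, 28.9 and 12.5 CPM in MHPA (log2 fold change -7.19, SE 1.35, adjusted p = 0.321 by edgeR). SLC4A5, a bicarbonate transporter, had 0.362, 1.35 and 0.42 CPM against 58.4, 7.96 and 3.04 CPM. Genes of motile cilia had 0 DEGs higher and 1 lower among 16, SPAG6, with a median of -0.47 that turned to 0.65 without MHPA replicate 1, and 3 higher and 0 lower without both libraries. Photoreceptor and pineal genes had 0 higher and 2 lower among 5 (median -0.84), and 0 and 4 without both libraries. One of them was TPH1, a serotonin synthesis gene, at 6.81, 2.98 and 6.66 CPM against 5.08, 57.2 and 42.1 CPM.

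Most peripheral nerve and muscle genes were highest by far in MHPJ replicate 2. Of 10 Schwann cell and peripheral nerve genes, 3 were DEGs with higher and 0 with lower expression, and the median was 4.32, or 0.32 without this library. Without MHPA replicate 1 as well, 7 were higher and 2 lower. PRX, the periaxin gene of peripheral myelin, had 7.6, 5552 and 13.5 CPM in MHPJ and 6.7, 2.7 and 5.36 CPM in MHPA. EGR2, the myelin transcription factor gene, had 3.5, 97.6 and 5.4 CPM against 1.54, 1.35 and 1.03 CPM. L1CAM, an axonal adhesion gene, was the one DEG of the list that did not follow this library, at 78.7, 85.5 and 133 CPM against 11.3, 45.2 and 38.4 CPM. BPIFA2, a salivary gland gene, took 1.08% of all reads of MHPJ replicate 2 (123218 reads, against at most 3 reads in any other library).

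Of 8 tested genes of striated muscle, 4 were DEGs with higher and 0 with lower expression, with a median of 4.72 that was 0.20 without MHPJ replicate 2, and 4 were higher without both libraries. CKM, the muscle creatine kinase gene, had 0.844, 549 and 2.1 CPM in MHPJ and at most 3.17 CPM in MHPA, and NEB, the nebulin gene, had 157 CPM in MHPJ replicate 2 and at most 5.82 CPM elsewhere. The other DEGs were ACTN2, given below, and MYH1, a fast myosin gene, with less uneven juveniles (2.71, 6.16 and 3.78 against 1, 0.429 and 0.0646 CPM). Among 38 collagen genes, 4 were DEGs with higher and 2 with lower expression, and the median of 0.78 turned to -0.47 without MHPJ replicate 2. Without MHPA replicate 1 as well, 6 were higher and 11 lower, so that the balance of calls turned. COL24A1, a fibrillar collagen gene, was separate between the groups (27.7, 185 and 38 against 7.4, 4.04 and 2.07 CPM) and kept its call in each leave-out. COL4A5 and COL4A6, which encode basement membrane chains, were the lower DEGs, at 11, 12.4 and 15.3 against 54, 33.6 and 17.6 CPM and at 6.45, 8.08 and 8.41 against 59.8, 23.8 and 9.5 CPM. COL28A1, a collagen gene of peripheral nerve, had 1728 CPM in MHPJ replicate 2 and 6.45 CPM in both other juveniles. The cartilage and bone list had 2 higher and 0 lower among 9 (COL2A1 and ACAN, median 1.88), the erythroid list 1 higher and 0 lower among 2 (HEMGN), and the adipocyte list 0 among 2, and without both libraries these lists had 3, 1 and 1 higher and 0 lower. The part of these tissues in the other differences of MHPJ replicate 2 was not tested.

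The DEGs with the lowest P whose groups did not overlap were taken across the whole genome. Among the genes higher in juveniles, ACTN2 (ENSECAG00000009009) had the lowest P of all genes. It encodes alpha-actinin 2, known from the Z-disc of muscle and from dendritic spines, and had 56.5, 103 and 95.4 CPM in MHPJ and 1.46, 0.858 and 1.1 CPM in MHPA. The log2 difference was 6.21 (SE 0.405) with an adjusted p = 0.0758 by edgeR, and MHPJ replicate 2, the library with muscle genes, was the highest juvenile. VIT, an extracellular matrix gene, had 40.9, 95.4 and 79.1 CPM against 1, 1.47 and 1.74 CPM (log2 fold change 5.66, SE 0.47, adjusted p = 0.153 by edgeR). NOS1, the neuronal nitric oxide synthase gene, had 23.8, 17.3 and 16 CPM against 0.847, 0.919 and 0.323 CPM (log2 fold change 4.76, SE 0.515). In these genes MHPA replicate 1 was at the adult level. That library shared high astrocyte genes with MHPJ replicates 1 and 3, but not with MHPJ replicate 2 (401 CPM). ACTN2 also had 48.8 CPM (without TMM factors) in an adult DP library poor in hormone genes. The other DP libraries had 0.41 to 2.38 CPM. Whether these genes go with stage or with tissue makeup was not tested.

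The other 9 genes of this group had log2 fold changes from 1.35 to 6.82. A septin gene that the file describes as neuronal-specific septin-3, and whose symbol a spreadsheet turned into a date, had 156, 181 and 246 CPM in MHPJ and 22, 9.25 and 12.7 CPM in MHPA. KCNQ5, a potassium channel gene that dampens neuronal firing, had 30.4, 20.6 and 19.6 CPM against 3.47, 3.92 and 4.39 CPM. LZTS1, a postsynaptic scaffold gene, had 43.9, 24.4 and 50.7 CPM against 3.7, 2.39 and 1.94 CPM. SPTAN1, the alpha-II spectrin gene of the membrane skeleton, was the most abundant of the 12, with 1428, 1714 and 1750 CPM against 470, 462 and 382 CPM. DPYSL3, which takes part in axon growth, had the smallest difference, with 131, 124 and 103 CPM against 48.7, 47.6 and 44.5 CPM. NDST4, a heparan sulfate modifying enzyme gene, had the largest log2 fold change, 6.82 (SE 0.874), at 34.2, 45 and 9.6 CPM against 0.462, 0.184 and 0.129 CPM. KIAA1549L, SYCE1 and SCRN1 complete the list, with log2 fold changes of 4.06, 1.68 and 1.88.

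Among the genes lower in juveniles, MSX1 (ENSECAG00000020619) had the lowest P. This homeobox gene had 2.95, 5.39 and 3.64 CPM in MHPJ and 111, 141 and 282 CPM in MHPA (log2 fold change -5.48, SE 0.515, adjusted p = 0.188 by edgeR). MHPA replicate 1, which lacked the hormone genes, had the lowest of the 3 adult values. Among the DP libraries MSX1 was lowest in an adult library poor in hormone genes, as given with the interactions below. Whether MSX1 goes with stage or with tissue makeup was not tested. PRLR, given above, had a log2 fold change of -5.56 (SE 0.658). ALDH1A2, which makes retinoic acid, had 4.82, 2.89 and 3.08 CPM against 49.8, 44.1 and 102 CPM (-4.17, SE 0.468), and RBP4, the retinol carrier gene, had 0.301, 0.577 and 0.35 CPM against 4.93, 10.3 and 9.24 CPM (-4.31, SE 0.53). All 4 genes separated the 3 adults from the 3 juveniles by several fold.

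The other 7 genes described had log2 fold changes from -4.10 to -1.47. PLS1, an actin bundling gene of epithelia, had 2.95, 4.42 and 4.76 CPM in MHPJ and 24.7, 32.2 and 39.2 CPM in MHPA. EMB, a transmembrane glycoprotein gene, had 22.3, 13.5 and 15.6 CPM against 76.6, 95.8 and 121 CPM. ACOX2, a peroxisomal oxidase gene, had 0.844, 2.02 and 0.631 CPM against 25.2, 17.5 and 16.8 CPM, and DAO, the D-amino acid oxidase gene, had 0.965, 0.385 and 0.771 CPM against 9.32, 8.7 and 6.91 CPM. CEP41, a gene of centrioles and cilia, had 16.2, 14.6 and 19.5 CPM against 52.2, 72 and 91.5 CPM. SH3BGR and PLCH1 had -1.55 and -1.47. The 23 genes described for both directions remained DEGs in each comparison that left out 1 library and, in the same direction, without both libraries that stood apart. They were picked for low P and separate groups in the same 6 libraries, so this gives no independent support. PLVAP, a gene of fenestrated endothelium, had 14.3, 51.6 and 27 CPM in MHPJ and 67.3, 307 and 173 CPM in MHPA (log2 fold change -2.56, SE 0.716).

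**Figure D3:**
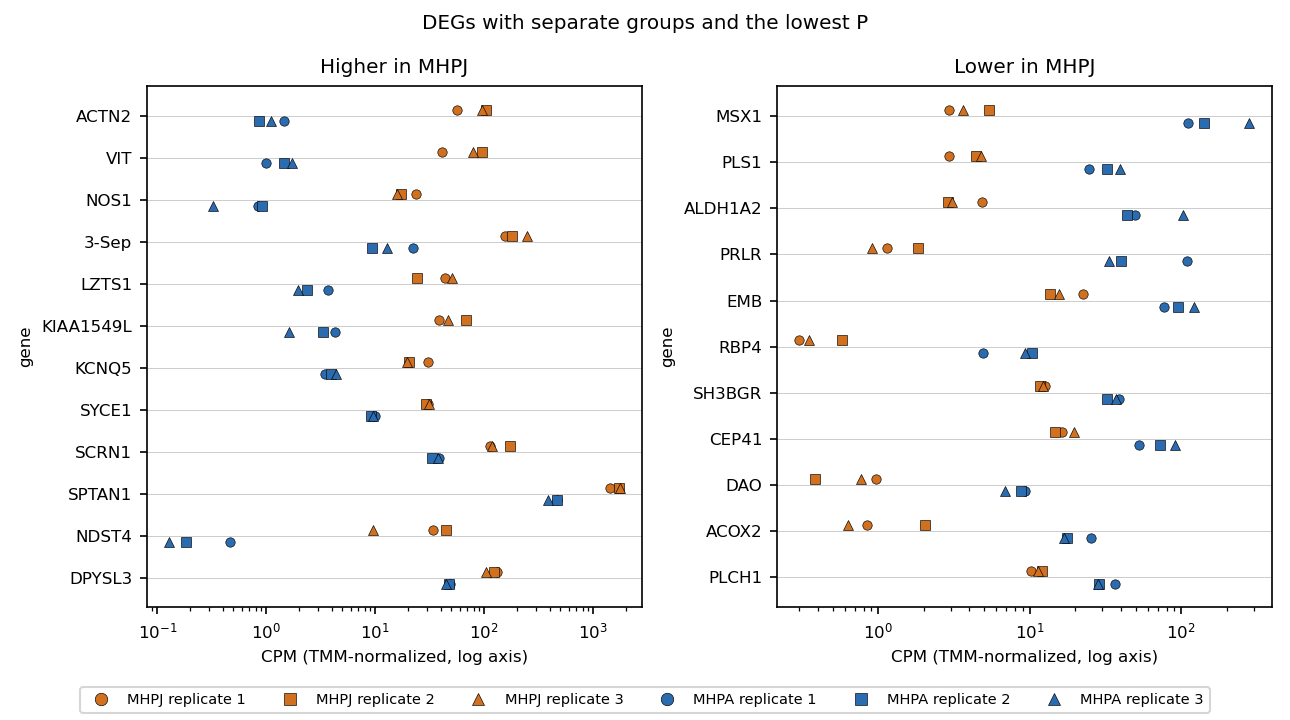
CPM (log axis) of the DEGs with the lowest P whose groups did not overlap, 12 higher and 11 lower in MHPJ, with 1 point per library, orange for MHPJ and blue for MHPA. ACTN2 lies at 56.5 to 103 CPM in MHPJ and 0.858 to 1.46 CPM in MHPA, and MSX1 at 2.95 to 5.39 and 111 to 282 CPM. The septin gene appears under the date that the file gives as its symbol.

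Chaperones of the endoplasmic reticulum (ER), where hormones and other secreted proteins fold, had lower expression in juveniles. Of 22 heat shock and ER chaperone genes, 11 were DEGs with lower and 0 with higher expression, and 21 had a log2 fold change at or below 0, with a median of -1.05 against 0.005 over all genes. The groups did not overlap for 9 of the 22, all lower. Of all 14430 tested genes, 3.24% were DEGs with lower expression and 1451 were separate and lower. The 11 DEGs were genes of the ER and its stress response, and 0 of the cytosolic and mitochondrial heat shock genes were among them. HSPA5 (ENSECAG00000024205), which encodes the ER chaperone BiP, had 409, 425 and 445 CPM in MHPJ and 781, 2694 and 2839 CPM in MHPA. The log2 difference was -2.30 (SE 0.528) with an adjusted p = 0.346 by edgeR. XBP1, the transcription factor of the unfolded protein response, had 41.1, 60.2 and 43.7 CPM against 86.9, 252 and 277 CPM, and MANF, a secreted factor of the same response, had 49.5, 54.1 and 57.6 CPM against 77.9, 253 and 309 CPM.

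The abundant chaperones moved the same way. HSP90B1 (GRP94 in the file) had 1637, 2074 and 1717 CPM in MHPJ and 2946, 5264 and 5361 CPM in MHPA, and the disulfide isomerase gene PDIA3, which is outside the list, had 467, 572 and 432 CPM against 712, 1995 and 2032 CPM. The co-chaperone genes DNAJB9 (31.5, 32.8 and 30.1 against 52.5, 147 and 169 CPM), DNAJC3 and SDF2L1 were separate as well, with log2 fold changes of -1.96, -1.50 and -1.95. The hormone-rich adults were highest in all of these genes, and MHPA replicate 1, with 5.78 CPM of hormone genes, was between them and the juveniles. These 8 genes kept their call in each leave-out of 1 library. CALR, an ER lectin gene, overlapped, at 443, 670 and 475 against 667, 1411 and 1385 CPM. The list median stayed between -1.33 and -0.89 with 1 library left out and was -1.52 without both libraries that stood apart. In the latter comparison 13 genes of the list were lower and 1 was higher, where 1711 of all 14703 tested genes were lower. By contrast HSP90AA1, the cytosolic heat shock gene with the highest level, had 6370, 2758 and 5994 CPM against 10475, 4748 and 3786 CPM and a log2 fold change of -0.33 (SE 0.566).

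Cholesterol synthesis genes had higher expression in juveniles. All 19 tested genes had a positive log2 fold change, 6 were DEGs with higher and 0 with lower expression, and the groups did not overlap for 10. Of all 14430 tested genes, 4.5% were DEGs with higher expression and 1091 were separate and higher. HMGCS1 (ENSECAG00000008637), which makes an early intermediate of the pathway, had 131, 237 and 152 CPM in MHPJ and 69.6, 24 and 37.3 CPM in MHPA (log2 fold change 1.99, SE 0.469, adjusted p = 0.348 by edgeR). SREBF2, the transcription factor of the pathway, had 101, 120 and 121 CPM against 75.9, 28.5 and 32.1 CPM. In both genes every juvenile was above every adult. FDFT1 and MSMO1, also enzymes of the pathway, were also DEGs, with 1.02 (SE 0.381) and 1.21 (SE 0.448). Without both libraries 7 genes were higher and 0 lower, where 2524 of all 14703 tested genes were higher. The median was 0.80 and stayed between 0.63 and 1.05 with 1 library left out and at 0.70 without both libraries. Summed over the list, the level was 1234, 2275 and 1307 CPM in MHPJ and 915, 607 and 742 CPM in MHPA. The adult library with the highest sum was also the one with 21444 CPM of myelin genes, against 177 and 174 CPM in the other adults and 6098 to 8713 CPM in the juveniles, and the part of myelin in this list was not tested.

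**Figure D4:**
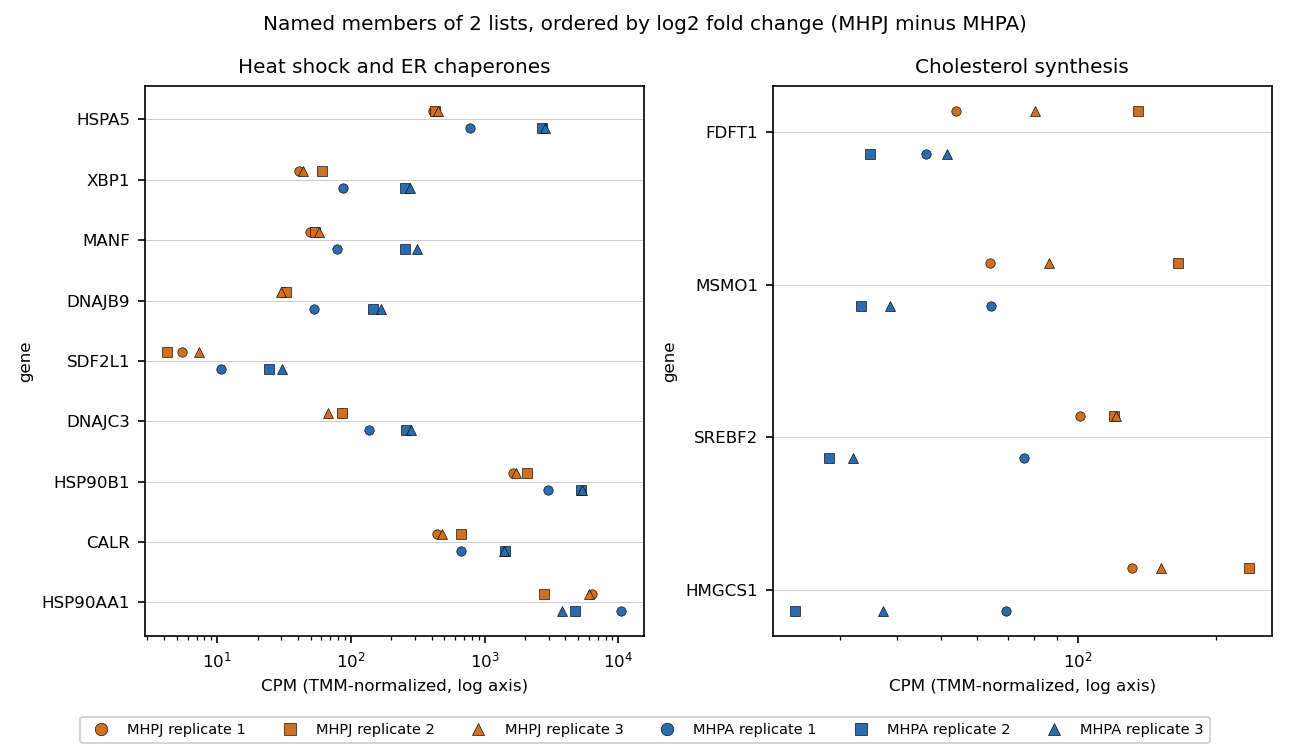
CPM (log axis) of 9 of the 22 tested heat shock and ER chaperone genes and 4 of the 19 tested cholesterol synthesis genes, those named in the text, ordered by log2 fold change (lowest first), with 1 point per library, orange for MHPJ and blue for MHPA. HSPA5 lies at 409 to 445 CPM in MHPJ and 781 to 2839 CPM in MHPA, and HMGCS1 at 131 to 237 and 24 to 69.6 CPM.

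Thyroid hormone and retinoid genes had 1 DEG with higher and 5 with lower expression in juveniles among 22, with a median of -0.15. Besides ALDH1A2 and RBP4, the lower genes were ALDH1A1 (278, 199 and 133 against 307, 667 and 1082 CPM), another retinoic acid synthesis gene, the thyroid hormone transporter gene SLC16A10 (2.77, 1.15 and 4.41 against 15.8, 11.2 and 5.88 CPM) and RDH10 (11.1, 21.6 and 6.8 against 24, 34.5 and 28.6 CPM), which oxidizes retinol. The groups did not overlap for these 5 genes. The higher gene was CYP26A1, which degrades retinoic acid, and it overlapped (6.51, 0.289 and 4.69 against 0.308, 0.0613 and 0.646 CPM). Without the 2 libraries that stood apart 3 genes of the list were higher and 6 lower, with a median of -0.28.

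Imprinted growth genes, which are expressed from 1 parental copy and are abundant in endocrine tissue, had 0 DEGs higher and 4 lower among 12 (median -0.70), and 0 and 6 without both libraries. NNAT, neuronatin, had 138, 24.6 and 390 CPM in MHPJ and 81, 6534 and 5081 CPM in MHPA. DLK1 had 0, 3.65 and 0 CPM in MHPJ and 0, 439 and 645 CPM in MHPA. In these genes and in MEST and PLAGL1 (log2 fold change -2.95 for both) MHPA replicate 1 lay with the juveniles, as it did for the hormones. Cytosolic ribosomal protein genes gave 0 DEGs among 28, with 1 positive log2 fold change and a median of -0.54, which was -1.06 without MHPJ replicate 2. Without both libraries that stood apart 19 of the 28 were DEGs with lower and 0 with higher expression, with a median of -1.16. RPS6 had 1576, 3646 and 1170 CPM in MHPJ and 2983, 3626 and 3890 CPM in MHPA. Genes of this family have near-identical copies between which the counting could split reads.

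Cell cycle genes were low in all libraries. Of 23 genes of proliferation and DNA replication, 3 were DEGs with higher and 0 with lower expression (median 0.34, or -0.11 without MHPJ replicate 2), and 5 were higher and 1 lower without both libraries. BUB1, a mitotic checkpoint kinase gene, had 2.29, 2.89 and 3.29 CPM in MHPJ and 0.385, 0.613 and 0.517 CPM in MHPA, a log2 fold change of 2.46 (SE 0.434), and kept its call in each leave-out. KIF11, a spindle motor gene (9.1, 7.02 and 8.2 against 5.16, 2.14 and 2.71 CPM), and RRM2, a nucleotide synthesis gene (1.09, 3.37 and 2.94 against 0.924, 0.429 and 0.775 CPM), were also separate.

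Of 10 WNT ligand genes, 3 were higher and 1 lower, with a median of 0.42. Without both libraries that stood apart 5 were higher and 0 lower, with a median of 1.54. In that comparison 28.8% of all tested genes were DEGs, 2524 higher and 1711 lower. The counts of the signalling lists below stand beside that share. WNT8A had 3.01, 2.98 and 3.5 CPM in MHPJ and 0.385, 0.98 and 0.388 CPM in MHPA and kept its call in each leave-out. WNT7B had 5.67, 21.5 and 6.66 CPM against 3, 0.306 and 0.582 CPM, and WNT10B had 16, 8 and 12 reads against 0, 2 and 0. WNT9A was the lower gene, at 1.33, 1.06 and 2.31 against 4.78, 3.43 and 2.91 CPM. Of 27 genes of WNT receptors and antagonists, 3 were higher and 1 lower (median 0.45), and 5 and 2 without both libraries (median 0.043). RSPO2, which amplifies WNT signals, had 17, 98 and 72 reads in MHPJ and 2, 1 and 1 reads in MHPA. FZD6, a WNT receptor gene, had 15.4, 16.8 and 9.88 CPM against 35.7, 57.4 and 51.4 CPM. Both were called in each leave-out, while FZD1 and SFRP5, the other higher genes, were not.

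Of 16 Notch genes 2 were higher and 0 lower (median 0.38), and 2 and 2 without both libraries. NOTCH1, a receptor, had 20.6, 44.3 and 25 CPM in MHPJ and 12, 8.09 and 7.5 CPM in MHPA, and its ligand gene JAG1 had 13.3, 32.7 and 19.3 CPM against 12.1, 7.66 and 11 CPM. BMP, TGF-beta and activin ligands gave 1 higher and 1 lower among 17 (median 0.086), and 7 and 4 without both libraries (median 0.63). INHBA, which encodes the activin A subunit, had 34.1, 5.77 and 12.1 CPM against 0.154, 2.08 and 1.16 CPM (log2 fold change 3.91, SE 1.08), and TGFB3 was the lower gene (-1.15, SE 0.448). The IGF system gave 1 higher and 0 lower among 12 (median -0.038). Without both libraries it gave 0 higher and 5 lower, with a median of -1.12. The higher gene with all libraries was IGF1, the growth factor that GH induces in the liver, at 3.5, 6.35 and 2.66 CPM in MHPJ and 1.23, 2.39 and 1.29 CPM in MHPA, and the log2 difference of 1.34 (SE 0.528) was 0.74 without the 2 libraries, where IGF1 was not a DEG. It kept its call in 2 of the 6 comparisons without 1 library. Hedgehog genes gave 0 DEGs among 8 (median 0.57), or 3 higher without both libraries, and PTCH1, the hedgehog receptor gene, was separate at 21.3, 42.6 and 21.2 against 14.4, 14.9 and 14.3 CPM.

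Microglia and macrophage genes gave 0 DEGs among 15 (median -0.45), T and B lymphocyte genes 0 higher and 1 lower among 10 (GZMA, median -0.46), neutrophil genes 1 higher and 0 lower among 6 (LCN2, 8.5, 27.2 and 15.1 against 3.24, 2.45 and 2.07 CPM), and interferon and antigen presentation genes 2 higher and 0 lower among 18 (IRF7 and RSAD2, median 0.16). Endothelial genes gave 1 higher (EGFL7) and 1 lower (PLVAP) among 13, genes of pericytes and smooth muscle 0 among 11, and fibroblast and meningeal genes 0 higher and 1 lower among 13, which was ALDH1A2. The medians of the last 3 lists were 0.34, 0.61 and 1.07 with all libraries, and all 3 were negative without MHPJ replicate 2, from -1.27 to -0.52. Without MHPA replicate 1 as well, 1 endothelial gene was higher and 3 lower, 0 and 4 of the pericyte list, 2 and 7 of the fibroblast list, and 2 and 6 of the interferon list. The same comparison gave 0 higher and 1 lower microglial gene, 1 and 2 lymphocyte genes and 1 and 1 neutrophil gene.

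Immediate early genes, which respond within minutes to stimulation or handling, gave 2 DEGs in each direction among 20 (median 0.31), and 4 higher and 3 lower without both libraries (median -0.17). FOS had 41.6, 39.2 and 21.9 CPM in MHPJ and 61.9, 123 and 61.3 CPM in MHPA, BTG2 was lower in juveniles as well, and EGR3 was higher (12, 1.35 and 15.1 against 1.23, 0.184 and 0.582 CPM), as was EGR2. Clock genes gave 1 higher and 1 lower among 18 (median -0.28), and 1 and 2 without both libraries. NPAS2, a partner of the clock activator, had 20.3, 17.6 and 37.8 CPM against 2.62, 8.15 and 7.56 CPM, and the repressor gene CRY1 had 38.6, 24.4 and 29.4 CPM against 48.4, 59.9 and 80.6 CPM. Times of day of sampling are not given in the sources used here. Glycolysis and hypoxia genes gave 2 higher and 1 lower among 21 (median 0.54), HK1 (460, 270 and 497 against 179, 221 and 195 CPM) and GPI, both glycolytic enzymes, and ADM, the adrenomedullin gene (1.02, 2.21 and 1.75 against 4.7, 27.6 and 10.7 CPM). Without both libraries 7 genes of that list were higher and 2 lower. Nuclear subunits of the respiratory chain gave 0 DEGs among 24 in either comparison (median 0.084).

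The 12 most abundant DEGs of each direction include genes of no list. ARHGAP36, a gene abundant in endocrine cells, had 1.75, 29.1 and 3.15 CPM in MHPJ and 2.31, 1390 and 2099 CPM in MHPA. MYH10, a non-muscle myosin gene, had 761, 718 and 1054 CPM against 411, 286 and 221 CPM and was called in each leave-out (log2 fold change 1.47, SE 0.323). SPTBN1, the spectrin partner of SPTAN1, had 2532, 3755 and 3184 CPM against 2229, 964 and 762 CPM. FAM117A had 542, 549 and 555 CPM against 371, 218 and 166 CPM, and TPM3, MPRIP and CHD3 had log2 fold changes of 1.31, 1.05 and 1.06 with separate groups. GPM6A and YWHAZ, both abundant in neurons, overlapped.

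**Figure D5:**
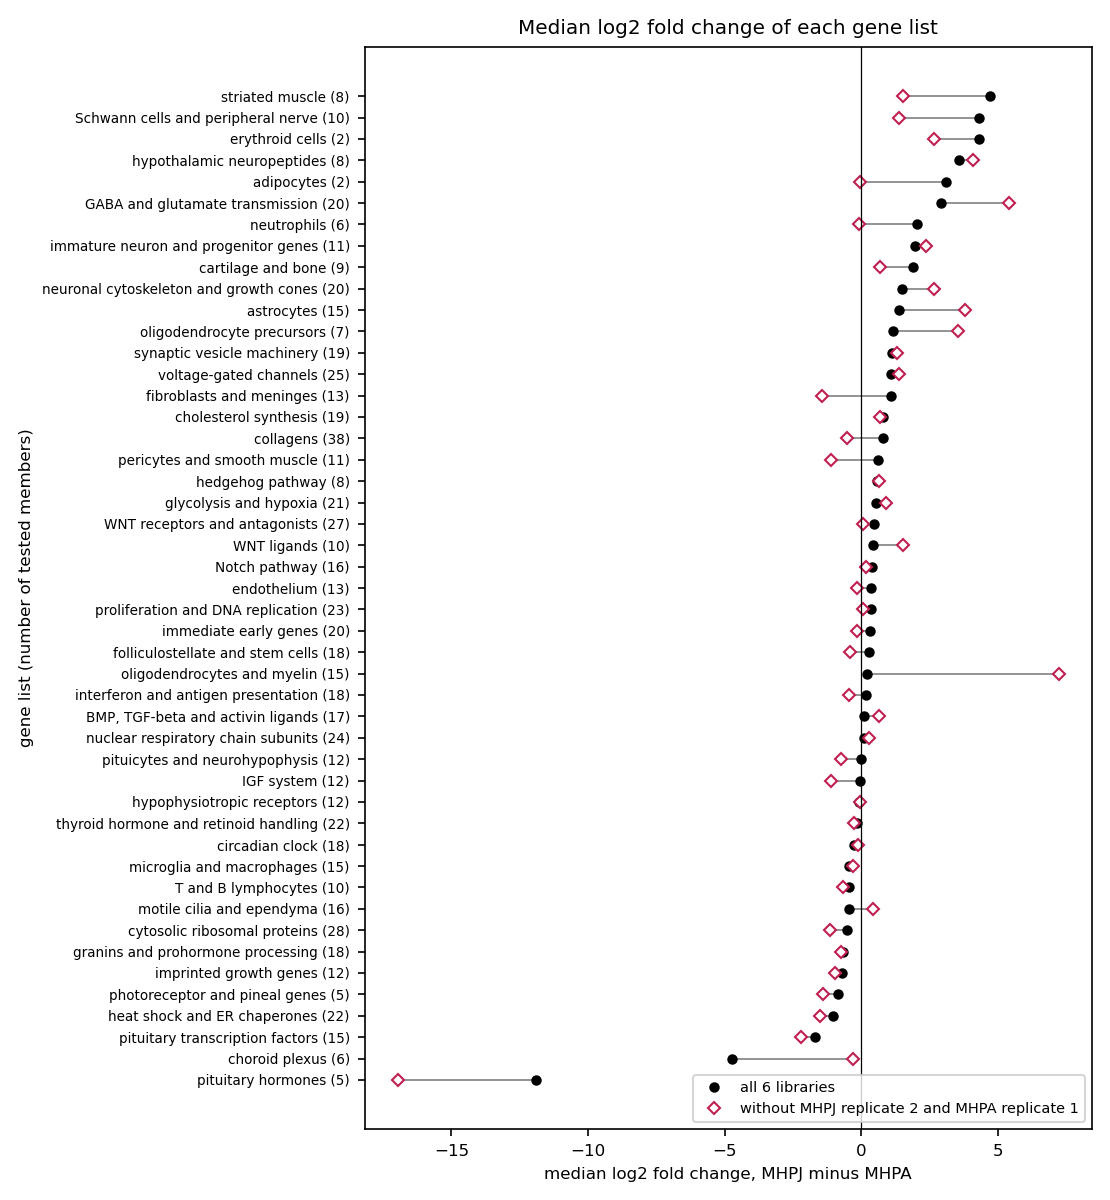
Median log2 fold change (MHPJ minus MHPA) of the tested members of 47 gene lists, with all 6 libraries (black circles) and without MHPJ replicate 2 and MHPA replicate 1 (open diamonds), with the number of tested members in brackets. The median of the hormone genes moves from -11.92 to -16.97, that of the myelin genes from 0.20 to 7.23 and that of the choroid plexus genes from -4.75 to -0.32, while that of cholesterol synthesis stays at 0.80 and 0.70.

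Whether the difference between the stages was itself different from that in DPs was tested as an interaction over 12 pituitary libraries. Summed hormone genes were at most 13.2 CPM in the juvenile MH libraries and at least 34944 CPM in the juvenile DP libraries. A breed difference in the stage effect therefore cannot be told apart from tissue makeup here. Of 15200 genes, 15.7% differed by more than 2-fold with an unadjusted P under 0.05, 1348 in the positive and 1034 in the negative direction, and the effect in MHs minus that in DPs is given. In edgeR's quasi-likelihood test 0 genes had an adjusted p under 0.05, with a lowest value of 0.106, and 3094 had an unadjusted P under 0.05. MSX1 and PRLR were among the genes with the lowest P. The interaction of MSX1 was -6.32 (adjusted p = 0.106 by edgeR), from -5.48 in MHs and 0.83 in DPs, and that of PRLR was -6.15 (adjusted p = 0.106 by edgeR), from -5.56 and 0.60. RBP4 followed with -6.01, VIT with 6.98, DLGAP1, a postsynaptic scaffold gene, with 4.98, LRRC17 with 3.55, FAM81A with 1.96 and ZBTB4 with 1.25.

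The levels behind these interactions also placed 1 DP library apart. MSX1 had 194, 211 and 235 CPM (without TMM factors) in the juvenile DPs and 29.6, 154 and 143 CPM in the adults, and the low adult library had 59.6 CPM of hormone genes, against 14468 to 41345 CPM in the other 5 DP libraries. ACTN2 had 48.8 CPM in the same DP library and between 0.41 and 2.38 CPM in the other 5. These DP levels of MSX1 and ACTN2 were singled out after their values were seen. For GH the interaction was -13.77 (adjusted p = 0.166 by edgeR), with a log2 fold change of -12.20 in MHs and 1.50 in DPs. Without MHPJ replicate 2, 344 genes had an interaction with an adjusted p under 0.05, and without MHPA replicate 1 there were 7.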

How the data were processed

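RNA of 6 MH samples labelled as pituitary (MHPJ and MHPA, 3 horses each) was analysed. The authors deposited counts of reads per gene, not normalized, and RPKM. Per the labels, TopHat2, bcl2fastq and edgeR were used, without versions. The labels give paired-end and the paper single-end reads, and the paper names Salmon for TPM values of transcripts. Which tool made the deposited counts is not given in the sources used here.

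Counts were tested with edgeR 4.0.16 (R 4.3.3; glmQLFit and glmQLFTest, TMM, filterByExpr with a minimum count of 10). DEGs passed the threshold of the study (unadjusted P under 0.05, more than 2-fold), with Benjamini-Hochberg adjustment over all tested genes beside it. The SE is the log2 fold change divided by the square root of F. DESeq2 1.42.0, edgeR's exact test, limma 3.58.1 on log2(RPKM + 1) and log2(RPKM + 0.1) with a mean deposited RPKM over 0.1, other filters, a fit of 12 libraries, the replicate block and leaving out libraries were alternatives. The steps were run on simulated counts with the same dispersion for all genes and no outlying library. These data differ in both, so that run does not give the error rate of the calls here. CPM of single genes used TMM factors, and sums over lists did not. Intervals and floors (3 reads) cover counting error only. With 3 libraries against 3 an exact permutation test cannot go below 0.1.

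The 47 lists and all choices were made with earlier results of these data known. Of 876 listed symbols 793 were found (9 genes by a RefSeq synonym, 6 by the description in the file) and 701 tested, counting repeats. Named genes were the hormones, the 12 separate DEGs of lowest P and the 12 most abundant DEGs in each direction, up to 6 DEGs of each list by P (its 2 most abundant members where it had fewer than 2), the 8 lowest interaction P and the 6 most abundant genes of each library. MOG, MOBP, AVP, OXT and POU1F1 were added after their values were seen. Some genes that met the rule are not reported here, without replacement. Promoter sequences were not analysed here.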

Additional observations from a re-analysis of the deposited data

How the results depend on the processing

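The 1117 DEGs (650 higher, 467 lower) became 1870 with DESeq2 (1196 higher) and 1758 with 12 libraries fitted together (1025 higher, 733 lower). Higher DEGs numbered 353 with limma on log2(RPKM + 1) and 986 without the low-count filter, and lower DEGs 710 with limma on log2(RPKM + 0.1). The 0 genes past an adjusted p of 0.05 became 720 with DESeq2, 237 with edgeR's exact test, 4 with limma on log2(RPKM + 1), 2 with 12 libraries, and 1 without TMM normalization or without the filter. Leaving out libraries gave 651 to 4235 DEGs (363 to 2524 higher, 267 to 1711 lower) and 0 to 4906 genes past an adjusted p of 0.05. The highest value of each range came from leaving out MHPJ replicate 2 and MHPA replicate 1 together, and the highest with 1 library left out was 2308, without MHPA replicate 1. Leaving out 1 library gave 1359 to 3860 interaction genes against 2382, lowest without DPPA replicate 1 and highest without MHPA replicate 1. The cause was not tested.

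With the replicate number as a block (replicate block) 836 genes were DEGs, 456 higher and 380 lower, and 2221 had an interaction. Samples with the same number did not all deviate together (r from -0.0384 to 0.128), so the numbers were not taken as pairs.

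Of 183 named genes, 139 were DEGs and 65 of these kept their call in all 6 comparisons without 1 library. Directions turned when libraries were left out for BCAS1 (-0.98 to 3.57), CCDC39 (-1.53 to 1.97), CKM (-0.24 to 8.75), COL1A2 (-2.30 to 3.28), COL2A1 (-0.056 to 5.19), GFAP (-0.79 to 8.91), HHIP (-0.83 to 6.73), MBP (-0.79 to 5.46), TTR (-10.31 to 5.33) and VIM (-1.09 to 3.03), all on the log2 scale. Depth limits the genes at a few reads, such as WNT10B and TSHB.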

Other observations

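The 13 protein-coding genes of mitochondrial DNA took 11.8%, 10.1% and 18.1% of the reads in MHPJ and 12.4%, 8.04% and 8.66% in MHPA. MT-CO1, a cytochrome oxidase subunit, was the most abundant named gene in several libraries, with 45006, 40620 and 61283 CPM in MHPJ and 50971, 31194 and 38767 CPM in MHPA (log2 fold change 0.28, SE 0.552). MT-ND2, a complex I subunit, had 8025, 6955 and 16916 CPM against 10514, 2442 and 2539 CPM, and its groups overlapped (log2 fold change 1.04, SE 0.76). None of the mitochondrial genes named by their abundance (MT-CO1, MT-ND2, MT-ND4, COX2, COX3, ATP6, ND1 and ND5) was a DEG, and MHPJ replicate 3 had the highest level of each of the 8.

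In the 8 ER chaperone genes called in each leave-out, and in MAP1B, TUBB3, STMN2 and THY1, MHPA replicate 1 lay between the juveniles and the other adults, while in OTX2, SLC4A5 and PRLR it lay beyond them, with 161, 58.4 and 109 CPM.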
